A study of Homo sapiens with 9 samples.

Results

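The genes described here make cholesterol and fatty acids or steer that synthesis through the sterol regulatory element-binding proteins (SREBPs). The list held 30 genes of the 28395 in the files, and it was chosen by name: 15 of the cholesterol arm, 10 of the fatty acid arm and 5 regulators, with symbols matched to NCBI Gene IDs. All 30 were matched, and all 30 were among the 16017 genes with enough counts to be tested. The study used differentiated Caco-2 cells, a line from a human colorectal adenocarcinoma whose cells take on features of small intestinal enterocytes when they are kept confluent. Cells labelled wild type were kept for 24 h in medium with 10 µM carmine, in medium with 20 µM carminic acid, or in regular medium as control. Total RNA was sequenced from 3 samples of each group, lettered A, B and C. Carminic acid is the red anthraquinone glucoside of the cochineal insect, and carmine is the lake pigment made from it with aluminium. The 2 agents were given at different concentrations, so every comparison between them also compares 10 with 20 µM. Nothing in the labels tells whether samples A, B and C were grown apart, and the p-values reflect no more than the spread among them, part or all of which may be technical.

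SREBPs are made as precursors in the membrane of the endoplasmic reticulum, where SCAP escorts them to the Golgi for cleavage when sterols are scarce and INSIG proteins hold them back when sterols are plentiful. The released part enters the nucleus and turns on its target genes: SREBP-2, the product of SREBF2, acts mainly on the cholesterol genes, and SREBP-1c, a product of SREBF1, mainly on the fatty acid genes. In the gut epithelium this system adjusts synthesis to the sterols and fats that arrive from the lumen.

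Total counts ran from 54871018 to 57581301 per library. Of 12 enterocyte markers, 10 had at least 1 CPM in every library, where CPM is the read count scaled to library size with TMM factors. VIL1, CDX2, SI and HNF4A were among them, and KRT20 and CDX1 were under 0.1 CPM in every library. Carmine library C differed from the other carmine libraries in its GC and length trends. Across genes, its deviation from the mean of the 9 libraries had a Spearman correlation of 0.502 with transcript GC content. That value was -0.438 in carmine library A and -0.432 in carmine library B. The correlation with GC content ran from 0.0934 to 0.563 in the carminic acid libraries and from -0.508 to 0.0646 in the control libraries. With transcript length the correlation was -0.388 in carmine library C, the lowest of the 9, 0.23 in carmine library A and -0.0726 in carmine library B. It ran from -0.131 to 0.246 in the carminic acid libraries and from 0.0121 to 0.222 in the control libraries. Mitochondrial genes took 0.974 to 1.296% of the counts with carmine, 1.24 to 2.08% with carminic acid and 1.95 to 2.52% in control. The summed level of 8 hepatocyte markers was 1271 to 1319 CPM with carmine, 1230 to 1340 CPM with carminic acid and 1107 to 1167 CPM in control, and 6 of the 8 had at least 1 CPM in every library. Of 6 adipocyte markers, ADIPOQ, LEP, FABP4 and LPL were under 0.1 CPM in every library, while PLIN1 had 0.635 to 1.09 CPM and CIDEC 49.0 to 76.0 CPM. Of 11 stromal, endothelial and immune markers, COL1A1, COL3A1, PDGFRB, PECAM1 and CD68 had at least 1 CPM in every library. COL1A2, DCN and PTPRC were under 0.1 CPM. Of 8 goblet, enteroendocrine and Paneth cell markers, TFF3, CHGB and LYZ had at least 1 CPM in every library, and MUC2, CHGA, NEUROD1 and DEFA5 were under 0.1 CPM. The part of these differences between libraries in the results below was not tested. In bulk samples such as these, fewer cells of a type and less RNA per cell cannot be told apart.

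SREBPs bind sterol regulatory elements, and in many target promoters they work beside NF-Y, which binds the CCAAT box, and Sp1, which binds GGGCGG. RefSeq promoter windows of build GRCh38.p14, from 250 bases before to 50 bases after a start, were given for 27 of the 30 genes. CACNCCAC, a core of the sterol regulatory element, was searched on both strands and was found in 6 of the 27 genes: IDI1, SC5D, SREBF2, INSIG1, ACACA and SCD. It was found in 5.87% of all 35116 windows and in 7.05% of all 27305 genes. CCAAT, likewise on both strands, where matches can overlap each other, was found in 21 of the 27 genes, against 34.6% of all windows and 39.7% of all genes. GGGCGG was found in 26 of the 27, against 45% of all windows and 48.3% of all genes. These are matches of letters, not shown to be sites. The background was not limited to genes with enough counts to be tested, whereas all 27 genes had enough, so the sets are unlike. The 250 bases before a start are printed for MSMO1 and IDI1, which had the smallest p of the 30 with carmine and with carminic acid. They are also printed for HMGCS1, which makes HMG-CoA in the mevalonate pathway, and for INSIG1, an SREBP target that feeds back on SREBP activation. Capitals mark CACNCCAC and CCAAT on either strand, and for a gene with several windows the one with most matches is shown.
MSMO1 (chr4:165327419-165327668, plus strand): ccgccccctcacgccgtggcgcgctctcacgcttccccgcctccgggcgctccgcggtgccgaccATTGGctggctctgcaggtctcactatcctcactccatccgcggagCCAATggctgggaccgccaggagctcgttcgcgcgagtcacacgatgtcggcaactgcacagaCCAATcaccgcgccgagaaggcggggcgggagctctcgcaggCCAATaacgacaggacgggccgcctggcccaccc
IDI1 (chr10:1048887-1049136, minus strand): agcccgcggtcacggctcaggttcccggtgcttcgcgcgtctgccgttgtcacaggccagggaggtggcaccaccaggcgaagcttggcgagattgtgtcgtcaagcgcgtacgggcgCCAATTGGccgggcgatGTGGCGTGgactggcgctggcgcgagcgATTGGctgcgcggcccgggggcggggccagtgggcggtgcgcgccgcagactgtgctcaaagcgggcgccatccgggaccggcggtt
HMGCS1 (chr5:43313413-43313662, minus strand): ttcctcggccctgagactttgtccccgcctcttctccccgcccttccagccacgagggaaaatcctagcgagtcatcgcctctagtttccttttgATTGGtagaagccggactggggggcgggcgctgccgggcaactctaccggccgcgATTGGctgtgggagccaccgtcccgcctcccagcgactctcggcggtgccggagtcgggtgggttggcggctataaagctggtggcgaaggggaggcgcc
INSIG1 (chr7:155297628-155297877, plus strand): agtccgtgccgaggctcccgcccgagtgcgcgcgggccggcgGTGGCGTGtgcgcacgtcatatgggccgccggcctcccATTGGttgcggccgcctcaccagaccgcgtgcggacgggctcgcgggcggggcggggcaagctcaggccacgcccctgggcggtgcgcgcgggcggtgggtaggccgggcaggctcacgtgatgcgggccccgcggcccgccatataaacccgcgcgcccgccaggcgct
The MSMO1 window held 4 CCAAT matches and no CACNCCAC. IDI1 was shown by 1 of its 3 windows, with 3 CCAAT matches and 1 CACNCCAC. HMGCS1 had 2 CCAAT matches, and INSIG1 had 1 match of each.

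In control cells the desaturase SCD stood above every other gene of the list, and the cholesterol arm ranged from DHCR7 down to MVK. Per kilobase of the longest annotated transcript, SCD had 782 ± 9.23 CPM, followed by DHCR7, which makes cholesterol in the last step of one branch, at 209 ± 8.81 CPM per kilobase (SD, n = 3 each). SC5D at 160 ± 13.9, HMGCS1 at 152 ± 5.45 and FDPS at 148 ± 2.59 CPM per kilobase came next, and each of these overlapped its neighbour in that order. CYP51A1 at 131 ± 6.65 CPM per kilobase lay below these 3 without overlap. The lower end was held by MVK at 9.43 ± 0.215, ACACB at 3.01 ± 0.270, ELOVL6 at 1.88 ± 0.271 and ACACA at 0.369 ± 0.433 CPM per kilobase. ACACA ran from 0.0780 to 0.867 CPM per kilobase between control libraries, and its counts are not read as a level of its transcript. The carbon entry enzyme ACSS2 had 103 ± 3.77 and ACLY 77.9 ± 2.14 CPM per kilobase, and FASN, which builds palmitate, had 47.0 ± 6.31 CPM per kilobase.

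**Figure D1:**
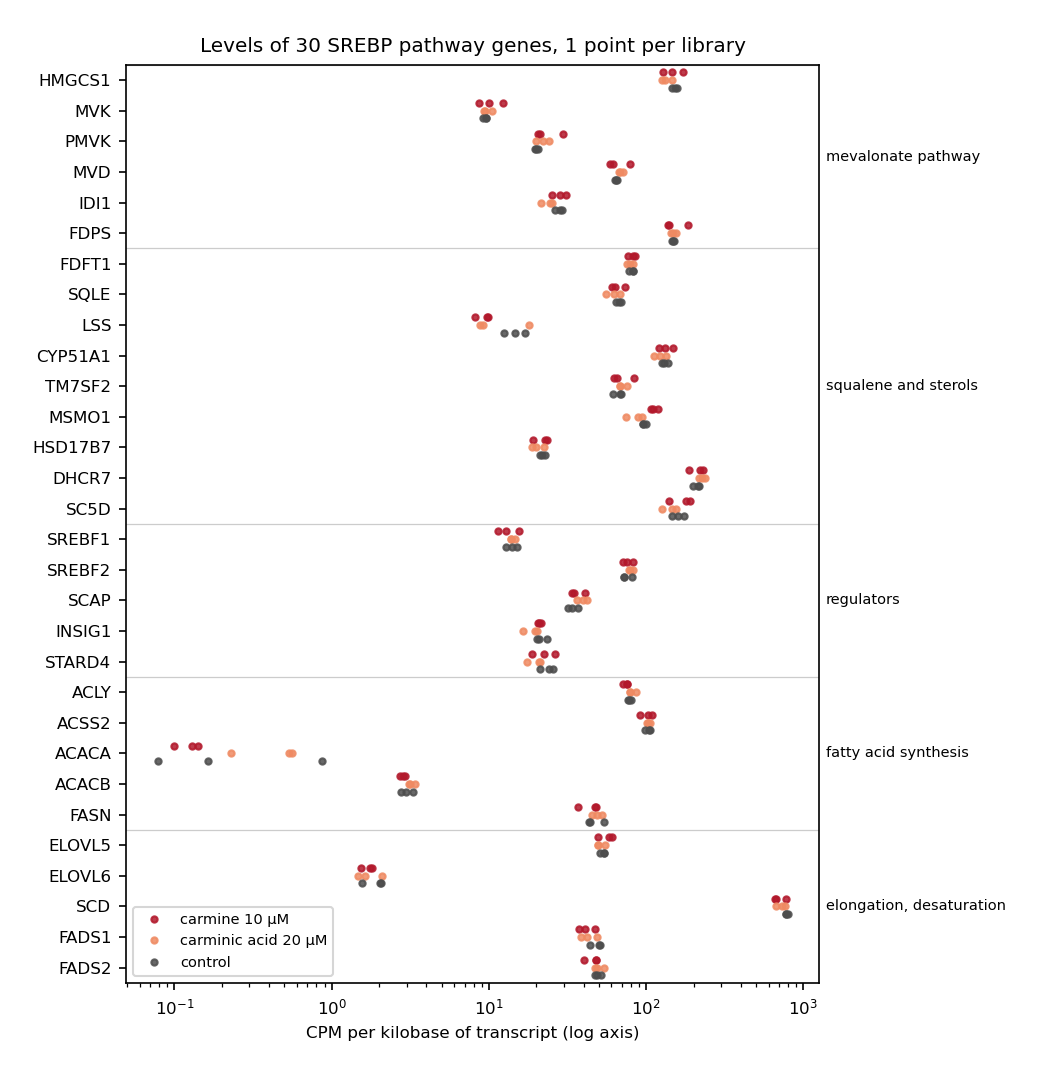
Level of the 30 genes in CPM per kilobase of transcript on a log axis, 1 point per library, with carmine above carminic acid above control for each gene and the genes grouped by role. SCD lies highest, ACACA lowest, and the 3 groups lie close together for most genes, with ACACA and LSS spread widest.

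Carmine was compared with control to ask how the pigment acts on gene expression of these intestinal cells. None of the 30 genes passed an adjusted p of 0.05 in edgeR's quasi-likelihood test, and none of the 16017 genes tested did, a background of 0%. DESeq2 and limma-voom called none of the 30 either, against 0.471% and 0.225% of all genes, and with GC and length trends removed edgeR called none of the 30, against 0.88%. Without carmine library C it called none of the 30, against 0.221% of all genes, and none against 0.621% with the trends removed as well. At an unadjusted p under 0.05, the level of 11% of all genes, there was 1 gene of the 30, MSMO1, with a higher value, where 5.38% of all genes had a higher and 5.61% a lower value. The 3 carmine libraries lay wholly above the 3 control libraries for 2 genes, PMVK and MSMO1, against a background of 7.32% of all genes, and wholly below them for 2 genes, LSS and ACLY, against a background of 7.67%.

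Carminic acid was compared with control in the same fit. Again none of the 30 genes passed an adjusted p of 0.05 in edgeR, against 0% of all genes, nor in DESeq2 (0.0358% of all genes), in limma-voom (0.0937%) or with the trends removed (0.0125%). At an unadjusted p under 0.05 there were 3 of the 30, against 6.43% of all genes. SCAP had a higher value, where 2.52% of all genes did, and IDI1 and STARD4 had lower values, where 3.91% did. The carminic acid libraries lay wholly above control for MVD and DHCR7, 2 of 30 against a background of 12% of all genes. They lay wholly below control for 5 genes, HMGCS1, IDI1, MSMO1, STARD4 and SCD, against a background of 8.82%. The 2 comparisons share the control libraries.

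The fold changes were small for all but 2 genes. Without ACACA and LSS, the log2 fold changes of the other 28 genes lay between -0.21 and 0.25 with carmine and between -0.25 and 0.20 with carminic acid. Their 95% intervals, each taken alone, reached from -0.44 for ELOVL6 to 0.51 for PMVK with carmine, which is 0.736-fold to 1.43-fold of control. With carminic acid they reached from -0.50 for STARD4 to 0.41 for PMVK, which is 0.709-fold to 1.33-fold of control. Over all 9 libraries the highest level of a gene was between 1.13 and 1.58 times its lowest for these 28 genes.

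**Figure D2:**
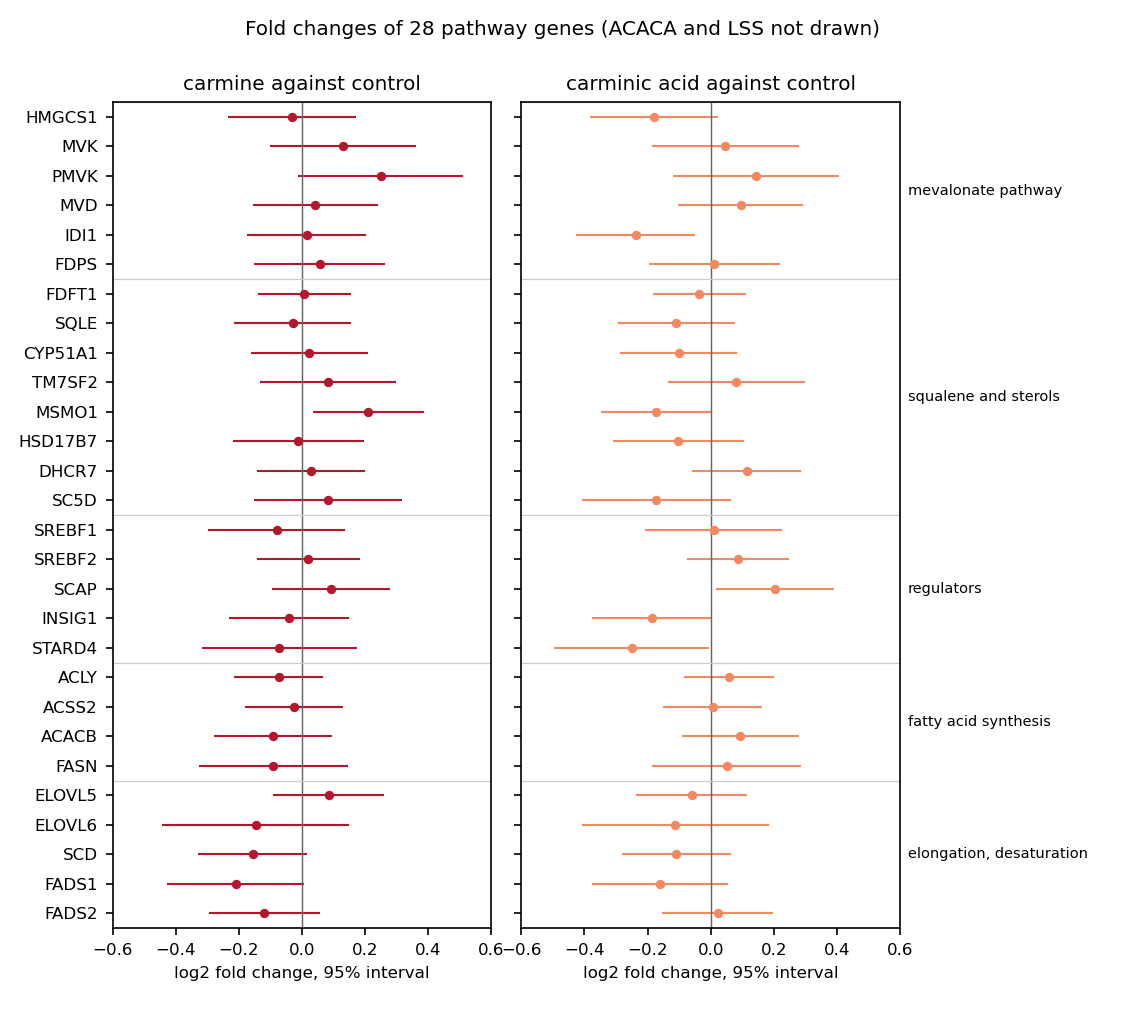
Log2 fold change against control with its 95% interval from edgeR for 28 genes, carmine on the left and carminic acid on the right, ordered by role. ACACA and LSS are not drawn. With carmine the interval of MSMO1 lies wholly above 0, and with carminic acid that of SCAP lies wholly above and those of IDI1 and STARD4 wholly below 0, before any adjustment for the 16017 genes.

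Among the regulators, SREBF2 had 404, 381 and 445 CPM in carmine libraries A, B and C, 426, 416 and 445 CPM in carminic acid libraries, and 435, 387 and 390 CPM in control libraries. SREBF1 had 54.8, 48.6 and 65.7 CPM with carmine, 62.3, 58.9 and 58.5 CPM with carminic acid, and 64.6, 59.5 and 54.5 CPM in control. The groups overlapped for both transcription factor genes. With carmine the log2 fold change was 0.02 (SE 0.0761) for SREBF2 and -0.08 (SE 0.102) for SREBF1, and with carminic acid it was 0.09 (SE 0.0761) and 0.009 (SE 0.102). INSIG1, which retains the SREBP and SCAP complex and is itself an SREBP target, had 64.2, 61.8 and 62.6 CPM with carmine, 61.1, 49.8 and 59.5 CPM with carminic acid, and 60.6, 62.4 and 70.8 CPM in control. Carminic acid library B was the lowest of the 9 for INSIG1, and carminic acid library A and control library A overlapped. Its log2 fold change was -0.04 (SE 0.0891) with carmine and -0.19 (SE 0.0892, adjusted p = 0.717) with carminic acid.

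SCAP, the escort of the SREBP precursors, had 152, 147 and 179 CPM with carmine, 161, 184 and 173 CPM with carminic acid, and 161, 149 and 139 CPM in control. It had the smallest p of the regulators in both comparisons. The groups overlapped, since control library A, at 161.5 CPM, was above carminic acid library A, at 160.7 CPM. SCAP had a log2 fold change of 0.09 (SE 0.0875, adjusted p = 0.695) with carmine and 0.20 (SE 0.0875, adjusted p = 0.717) with carminic acid. STARD4, a carrier of cholesterol between membranes and an SREBP-2 target, had 121, 103 and 86.4 CPM with carmine, 97.2, 80.9 and 96.2 CPM with carminic acid, and 97.5, 111 and 118 CPM in control. With carminic acid its 3 libraries lay below all of control, though libraries A of the 2 groups were almost level. STARD4 had a log2 fold change of -0.25 (SE 0.115, adjusted p = 0.717) with carminic acid and -0.07 (SE 0.114) with carmine.

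The mevalonate pathway turns acetyl-CoA into farnesyl diphosphate. HMGCS1, which makes HMG-CoA, had 602, 512 and 449 CPM with carmine, 508, 443 and 460 CPM with carminic acid, and 515, 531 and 553 CPM in control. Carmine libraries A and C were the highest and the second lowest of all 9, so carmine overlapped control on both sides, while all carminic acid libraries lay below control. HMGCS1 had a log2 fold change of -0.03 (SE 0.0947) with carmine and -0.18 (SE 0.0947, adjusted p = 0.717) with carminic acid. PMVK, the phosphomevalonate kinase, had 26.3, 27.0 and 37.8 CPM with carmine, 25.6, 30.7 and 28.4 CPM with carminic acid, and 26.2, 25.4 and 25.1 CPM in control. Carmine library C carried most of that difference, and the other two carmine libraries lay just above control. PMVK had the smallest p of this pathway with carmine, at a log2 fold change of 0.25 (SE 0.123, adjusted p = 0.459), and 0.14 (SE 0.123) with carminic acid. Without carmine library C the log2 fold change of PMVK was 0.066 (adjusted p = 0.788).

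IDI1, which isomerises isopentenyl diphosphate, had 105, 94.96 and 84.98 CPM with carmine, 82.2, 72.2 and 84.5 CPM with carminic acid, and 89.1, 94.9 and 97.7 CPM in control. The carminic acid libraries were the 3 lowest of the 9. IDI1 had a log2 fold change of -0.24 (SE 0.0879, adjusted p = 0.717) with carminic acid, the smallest unadjusted p of the 30 genes in that comparison, and 0.015 (SE 0.0877) with carmine. MVD, the decarboxylase, averaged 121 ± 19.6 CPM with carmine, 126 ± 3.70 CPM with carminic acid and 118 ± 1.89 CPM in control, and its carminic acid libraries lay above control at a log2 fold change of 0.095, which was -0.020 with the GC and length trends described further on removed. MVK averaged 28.4 ± 4.96, 26.7 ± 1.60 and 25.9 ± 0.591 CPM, and FDPS, the farnesyl diphosphate synthase, 228 ± 39.8, 221 ± 8.75 and 219 ± 3.83 CPM, in the same order of groups. For MVK and FDPS the groups overlapped in both comparisons, and the SD with carmine was the widest. Carmine library C was the highest of the 9 for MVK, PMVK, MVD and FDPS.

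MSMO1, the C4-methyl sterol oxidase, had the smallest p of the 30 genes between the 2 agents. It had 268, 245 and 252 CPM with carmine, 202, 170 and 214 CPM with carminic acid, and 217, 216 and 227 CPM in control. Every carmine library lay above control and every carminic acid library below it. Its log2 fold change was 0.21 with carmine (SE 0.0823, 95% interval 0.035 to 0.39, adjusted p = 0.403) and -0.17 with carminic acid (SE 0.0824, 95% interval -0.35 to 0.0036, adjusted p = 0.717). Neither passed the adjusted threshold.

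SQLE, the squalene epoxidase, had 217, 181 and 187 CPM with carmine, 202, 164 and 186 CPM with carminic acid, and 191, 205 and 200 CPM in control. The groups overlapped, and the log2 fold change was -0.03 (SE 0.0870) with carmine and -0.11 (SE 0.0870) with carminic acid. SC5D, the lathosterol oxidase, had 466, 438 and 343 CPM with carmine, 356, 310 and 379 CPM with carminic acid, and 358, 393 and 427 CPM in control, again with overlap. CYP51A1, the lanosterol demethylase, averaged 429 ± 44.3 CPM with carmine, 393 ± 33.5 CPM with carminic acid and 422 ± 21.3 CPM in control. DHCR7 averaged 568 ± 60.1, 602 ± 24.98 and 556 ± 23.5 CPM in that order of groups, and its carminic acid libraries lay wholly above control at a log2 fold change of 0.11 (SE 0.0807, adjusted p = 0.73), or 0.035 with those trends removed. FDFT1, the squalene synthase, averaged 216 ± 12.4, 210 ± 9.40 and 215 ± 7.83 CPM. TM7SF2, a sterol reductase, averaged 121 ± 20.2, 121 ± 7.22 and 115 ± 7.06 CPM, and HSD17B7, a ketosteroid reductase of the same route, 25.8 ± 2.80, 24.3 ± 2.19 and 26.1 ± 0.931 CPM. The groups overlapped for CYP51A1, FDFT1, TM7SF2 and HSD17B7 in both comparisons. FDPS and HSD17B7 have near-identical pseudogene copies, and how reads that map to several places were counted is not given in the sources used here.

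LSS, which closes squalene epoxide into lanosterol, had the widest spread of the cholesterol arm. It had 48.0, 48.9 and 40.4 CPM with carmine, 88.9, 44.97 and 43.6 CPM with carminic acid, and 61.9, 83.7 and 72.2 CPM in control. All carmine libraries lay below control, while carminic acid library A was the highest of the 9 and libraries B and C were near the carmine values. The log2 fold change was -0.67 with carmine (SE 0.284, 95% interval -1.33 to 0.0010, adjusted p = 0.454) and -0.30 with carminic acid (SE 0.282, adjusted p = 0.784). The highest library was 2.20 times the lowest, a ratio reached by 2.85% of the 13181 genes that averaged at least 1 CPM. Of the 5 nearest protein-coding genes on each side of LSS on chromosome 21, MCM3AP had 81.9 to 96.5 CPM and DIP2A 55.2 to 74.6 CPM, and the 8 with over 1 CPM in some library had highest-to-lowest ratios of 1.18 to 1.64.

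ACLY, which cuts citrate into acetyl-CoA, had 327, 307 and 329 CPM with carmine, 372, 342 and 341 CPM with carminic acid, and 336, 330 and 348 CPM in control. The carmine libraries lay below control, with carmine library C almost level with control library B, and carminic acid overlapped control. The log2 fold change of ACLY was -0.07 (SE 0.0665, adjusted p = 0.682) with carmine and 0.06 (SE 0.0665, adjusted p = 0.802) with carminic acid. ACSS2, which makes acetyl-CoA from acetate, averaged 309 ± 27.2 CPM with carmine, 316 ± 5.97 CPM with carminic acid and 314 ± 11.5 CPM in control. FASN had 404, 317 and 414 CPM with carmine, 450, 416 and 385 CPM with carminic acid, and 465, 375 and 368 CPM in control. The groups overlapped for ACSS2 and FASN, and the log2 fold change of FASN was -0.09 (SE 0.110) with carmine and 0.05 (SE 0.110) with carminic acid.

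The acetyl-CoA carboxylases make malonyl-CoA, ACACA for synthesis in the cytosol and ACACB at the mitochondria. ACACB had 27.4, 25.3 and 26.5 CPM with carmine, 29.5, 31.8 and 28.8 CPM with carminic acid, and 30.8, 25.8 and 27.9 CPM in control. Control overlapped both agents, and ACACB had the smallest p of its role with carminic acid, at a log2 fold change of 0.09 (SE 0.0869, adjusted p = 0.774), and -0.09 (SE 0.0871) with carmine. ACACA had 1.41, 1.28 and 0.984 CPM with carmine, 5.59, 5.32 and 2.28 CPM with carminic acid, and 8.63, 0.777 and 1.63 CPM in control. Control libraries A and B were the highest and the lowest of all 9, so both agents lay within the range of control. The log2 fold change of ACACA was -1.58 with carmine (SE 0.921, 95% interval -3.80 to 0.64, adjusted p = 0.548) and 0.26 with carminic acid (SE 0.854, adjusted p = 0.943). It was the smallest p of its role with carmine, and the widest interval of the 30 genes.

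The counts of ACACA varied 11.1-fold between the lowest and the highest library, and 0.303% of the 13181 genes that averaged at least 1 CPM varied as much. It lies on chromosome 17 from 37084992 to 37406836 (GRCh38.p14 annotation). Of the 5 nearest protein-coding genes on each side, 5 were under 1 CPM in every library, among them AATF, which had a count in 1 of 9 libraries. DHRS11 had 1.53, 5.20 and 6.25 CPM with carmine, 1.75, 4.71 and 2.32 CPM with carminic acid, and 26.8, 2.86 and 1.59 CPM in control, so it too was highest in control library A. The other 4 neighbours with over 1 CPM in some library were GGNBP2, TADA2A, SYNRG and DDX52, and the highest-to-lowest ratio of all 5 ran from 1.82 to 17.6. PSMB3, a proteasome subunit gene further along the chromosome that was chosen after its values were seen, had 2.18, 2.07 and 16.8 CPM with carmine, 1.70, 1.89 and 1.56 CPM with carminic acid, and 1.47, 1.89 and 1.59 CPM in control. Its partner subunits PSMB1, PSMB2, PSMB4, PSMB5, PSMB6 and PSMB7 were each at 47.8 CPM or more in every library. What sets the low and uneven counts in this stretch was not tested, and the ACACA values are given here as counts, not as a level of its transcript.

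**Figure D3:**
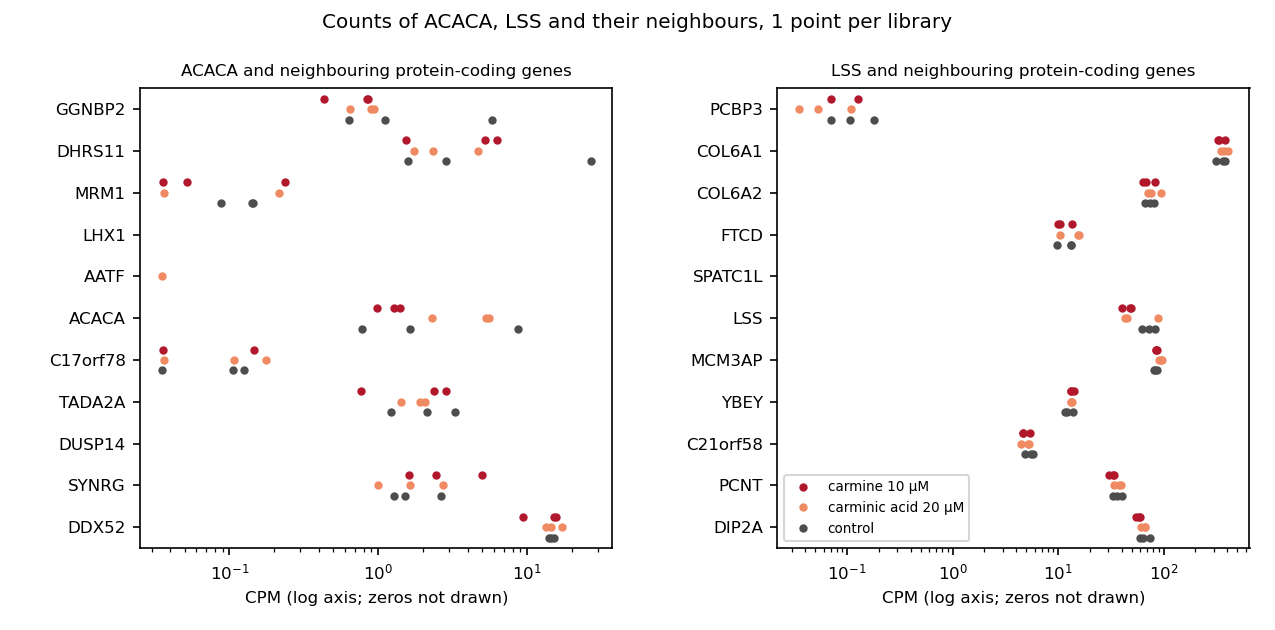
CPM on a log axis in each library for ACACA (left) and LSS (right) with the 5 nearest protein-coding genes on each side in chromosome order, carmine above carminic acid above control. Zeros are not drawn. GGNBP2 lies as low as ACACA and is as widely spread, DHRS11 is spread as widely at higher levels, and 5 neighbours of ACACA stay under 1 CPM, whereas the neighbours of LSS with over 1 CPM vary at most 1.64-fold.

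SCD, the stearoyl-CoA desaturase, had 4170, 3585 and 3544 CPM with carmine, 4124, 3602 and 3938 CPM with carminic acid, and 4184.5, 4149 and 4247 CPM in control. All carminic acid libraries lay below control and carmine library A overlapped it. The log2 fold change of SCD was -0.15 with carmine (SE 0.0809, adjusted p = 0.478) and -0.11 with carminic acid (SE 0.0809, adjusted p = 0.737). FADS1, the delta-5 desaturase of polyunsaturated fatty acids, had 213, 185 and 169 CPM with carmine, 222, 175 and 190 CPM with carminic acid, and 199, 226 and 231 CPM in control. Control library A lay within the range of both agents. FADS1 had the smallest p of the elongases and desaturases in both comparisons, at a log2 fold change of -0.21 (SE 0.101, adjusted p = 0.454) with carmine and -0.16 (SE 0.101, adjusted p = 0.717) with carminic acid. FADS2, the delta-6 desaturase, had 174, 146 and 175 CPM with carmine, 196, 172 and 177 CPM with carminic acid, and 173, 186 and 178 CPM in control. Carmine library B was its lowest, and the log2 fold change was -0.12 (SE 0.0820) with carmine and 0.02 (SE 0.0820) with carminic acid. The annotated spans of FADS1 and FADS2 overlap on chromosome 11, and the strand setting of the counting is not given in the sources used here. The elongase ELOVL5 averaged 173 ± 18.7 CPM with carmine, 157 ± 9.31 CPM with carminic acid and 164 ± 5.59 CPM in control, and ELOVL6, which extends palmitate, 10.9 ± 0.907, 11.2 ± 2.08 and 12.1 ± 1.75 CPM. Both overlapped between groups.

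**Figure D4:**
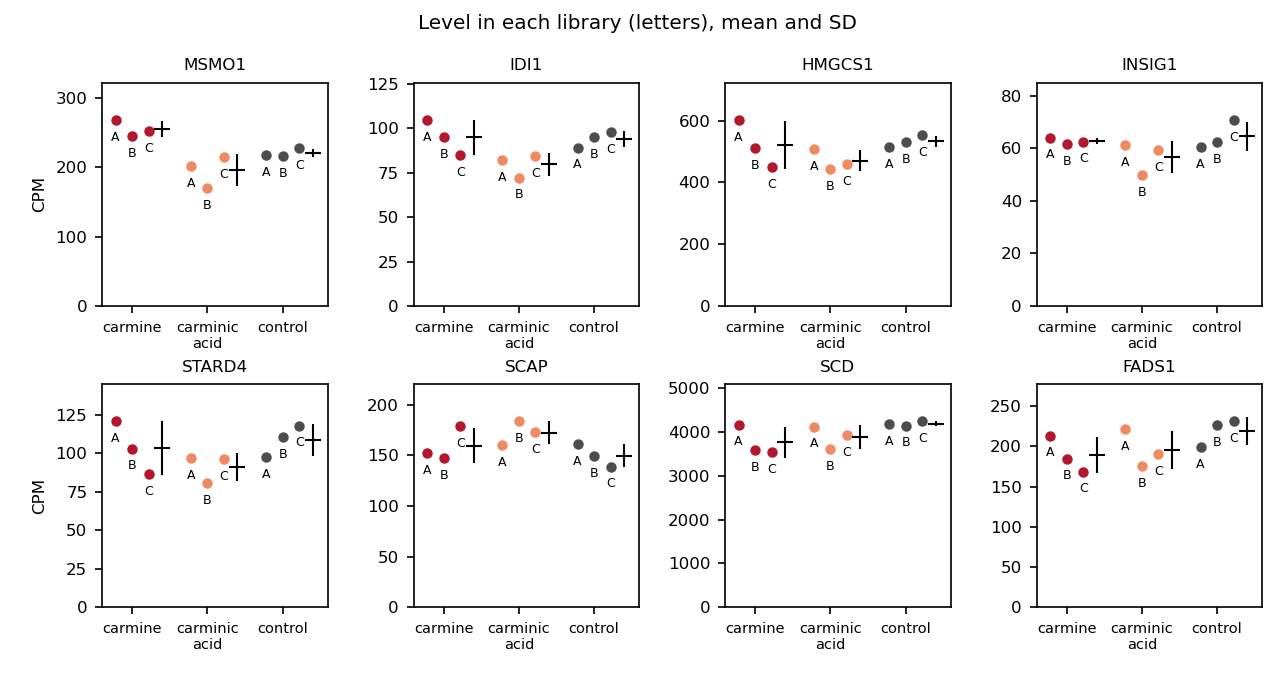
CPM in each library (letters A, B and C) for 8 genes, with carmine left of carminic acid and control, and the mean and SD (n = 3) as a bar beside the points. MSMO1 is the only one of the 8 with carmine wholly above and carminic acid wholly below control, and the axes start at 0.

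The 2 arms were then set side by side. With carmine, 11 of the 15 cholesterol genes had a fold change above 0, with a median log2 fold change of 0.029, while 9 of the 10 fatty acid genes had one below 0, with a median of -0.105. Over all genes tested, 51.7% lay above and 48.3% below 0, with a median of 0.0066. The exception among the fatty acid genes was ELOVL5, at 0.085. None of these genes passed the test alone, and whether the arms differ was not tested. The arms also differ in transcript length. The longest transcript ran from 1190 bases for HSD17B7 to 4936 for LSS in the cholesterol arm. In the fatty acid arm it ran from 3065 bases for ACSS2 to 9961 for ACACA. Fold changes with carmine fell with length, as given further on, and the part of length in the contrast between the arms was not tested. The count of 11 was 7 with library sizes alone, 7 without carmine library A, 7 without carmine library C, 7 with GC and length trends removed and 5 in limma-voom, so the side of 0 on which most cholesterol genes lay turned with these choices. The 9 fatty acid genes below 0 were 7 without control library A or without carmine library B, and 9 with the trends removed, at a median of -0.067. Of all 16017 genes, 8431 lay above and 7586 below 0 with the trends removed, and the median was 0.01.

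With carminic acid, 9 of the 15 cholesterol genes lay below 0, with a median log2 fold change of -0.102, and 6 of the 10 fatty acid genes above 0, with a median of 0.014, where 51.9% of all genes lay below and 48.1% above 0, with a median of -0.0078. In the cholesterol arm the steps split: 7 of the 9 squalene and sterol genes lay below 0, and 4 of the 6 mevalonate genes above it. With the trends removed this split was gone: 13 of the 15 cholesterol genes lay below 0, at a median of -0.0424, and of the mevalonate genes PMVK alone lay above it, at 0.059. Of all 16017 genes, 7806 lay below 0 with the trends removed, and the median was 0.0033. In the fatty acid arm all 5 genes of supply and synthesis lay above 0, at 0.0067 to 0.26, of which the 0.26 belongs to ACACA, and 4 of the 5 elongases and desaturases below it. With the trends removed ACSS2 was at -0.047 and FASN at -0.073, which left 3 of these 5 above 0. The 6 fatty acid genes above 0 were 3 without control library C, 4 with library sizes alone and 4 with the trends removed.

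As a level over the whole arm, the mean log2 CPM of the 14 cholesterol genes other than LSS was 7.25 ± 0.0887 with carmine, 7.15 ± 0.0622 with carminic acid and 7.1998 ± 0.0187 in control (SD, n = 3 each). For the 9 fatty acid genes other than ACACA it was 7.51 ± 0.0860 with carmine, 7.57 ± 0.0744 with carminic acid and 7.60 ± 0.0134 in control. Leaving out these 2 genes was decided after their spread was seen. With ACACA the fatty acid arm differed from control by -0.17 with carmine and by 0.064 with carminic acid, and without it by -0.093 and by -0.0241, so this single gene set the sign with carminic acid. With LSS the cholesterol arm differed by 0.0058 with carmine and by -0.0676 with carminic acid, and without it by 0.0533 and by -0.0463. The value of 0.0058 was -0.0253 with library sizes alone and -0.0247 with the trends removed.

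The fold changes with carminic acid followed the GC content of the transcripts. All 8 genes under 45% GC lay below 0, with a median log2 fold change of -0.17: STARD4, CYP51A1, HMGCS1, IDI1, ELOVL5, MSMO1, SC5D and ELOVL6. Of the 12 genes over 55% GC, 11 lay above 0, with a median of 0.066, and LSS was the exception. All genes, cut into 20 bins of GC content, showed the same trend. Their median log2 fold change ran from -0.15 to -0.042 in the bins centred under 45% GC. In the bins centred over 55% GC it ran from 0.075 to 0.13. The Spearman correlation of fold change with GC content was 0.72 over the 30 genes and 0.481 over 15453 genes, a description across genes that share the same 6 libraries. With a smooth trend over GC content and length removed from each library, 7 of the 8 low-GC genes lay below 0 with a median of -0.049, and 8 of the 12 high-GC genes lay below 0 with a median of -0.030. With the trends so removed, 7806 of all 16017 genes lay below 0. In that fit the log2 fold change with carminic acid was -0.15 for IDI1 (adjusted p = 0.50), -0.047 for MSMO1, -0.062 for STARD4 and 0.10 for SCAP (adjusted p = 0.669). The cause of the trend was not tested.

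With carmine the relation to GC content among the 30 genes had a Spearman correlation of 0.0363, against 0.145 over all genes. Length ran the other way: longer transcripts had lower fold changes with carmine, at -0.729 over the 30 genes and -0.259 over all genes, against -0.00467 over the 30 with carminic acid. With the trends removed MSMO1 stayed at 0.18 (adjusted p = 0.193) and PMVK was at 0.14 (adjusted p = 0.267) with carmine. The cholesterol genes then split 7 above and 8 below 0, with a median of -0.0012.

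**Figure D5:**
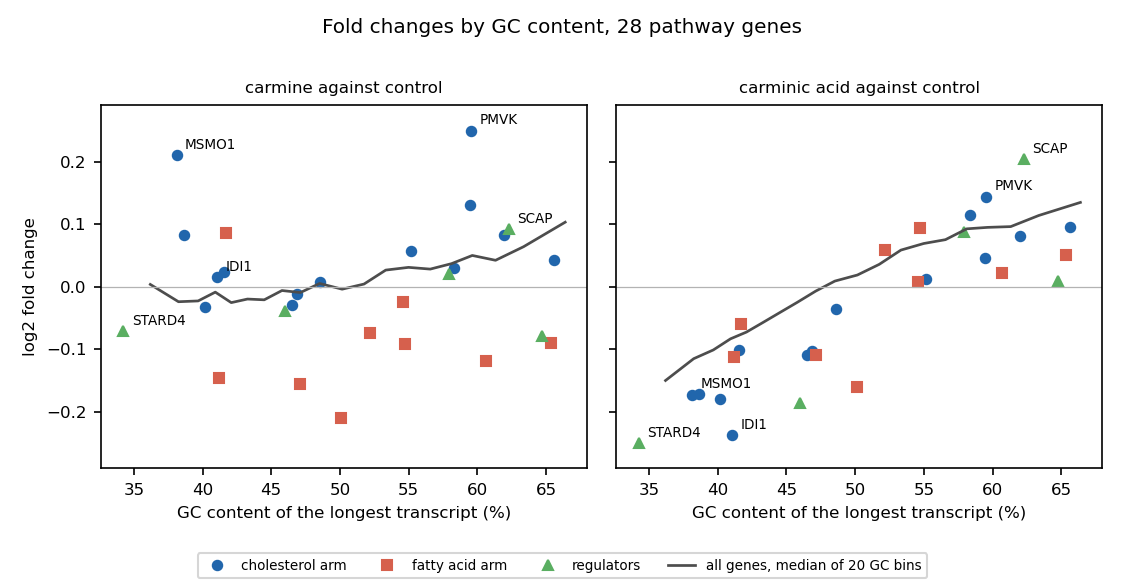
Log2 fold change against control by GC content of the longest transcript for 28 genes, carmine left and carminic acid right, with the median of all genes in 20 GC bins as a line. With carminic acid the points climb with the line from STARD4 at -0.25 to SCAP at 0.20, and with carmine most fatty acid genes lie below the line.

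Set directly against each other, 10 µM carmine and 20 µM carminic acid gave their smallest p among the 30 genes at MSMO1, while ACACA and LSS, with their wide spread, had log2 differences of -1.84 and -0.37. No gene of the 30 passed an adjusted p of 0.05 in edgeR, where 1 of 16017 genes did (0.00624%). At an unadjusted p under 0.05, where 8.9% of all genes lay, IDI1, MSMO1 and SC5D had higher values with carmine, where 5.65% of all genes did, and none had a lower one, where 3.25% did. MSMO1 had a log2 difference, carmine over carminic acid, of 0.38 (SE 0.0824, 95% interval 0.21 to 0.56, adjusted p = 0.243), IDI1 of 0.25 (SE 0.0879, adjusted p = 0.45) and SC5D of 0.25 (SE 0.110, adjusted p = 0.534). The carmine libraries lay wholly above those of carminic acid for IDI1, MSMO1 and INSIG1, 3 of 30 against a background of 7.09%, and wholly below them for ACLY, ACACA and ACACB, 3 of 30 against 6.01%. Of the cholesterol genes 12 of 15 were higher with carmine, with a median of 0.084, and of the fatty acid genes 9 of 10 were lower, with a median of -0.091, where 51.1% of all genes were higher and 48.9% lower. Over the 30 genes the log2 difference had a Spearman correlation of -0.693 with GC content and of -0.556 with length. Over all genes these were -0.299 and -0.191. The 12 cholesterol genes were 8 in limma-voom and 8 to 14 over the fits without 1 library, with 8 without carmine library C and 14 without carmine library B, and 12 with the trends removed, at a median of 0.056. The 9 fatty acid genes were 6 without carmine library C or without carminic acid library A, and 7 with the trends removed, at a median of -0.0164. Of all 16017 genes, 8356 were higher and 7661 lower with the trends removed, and the median was 0.0059. Over the 28 genes other than ACACA and LSS the 95% intervals of the difference reached from -0.38 for FASN to 0.56 for MSMO1.

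The direct comparison turned on carmine library C and on the tool. DESeq2 called MSMO1 alone of the 30, at an adjusted p of 0.0122, among 0.576% of the genes it adjusted, and limma-voom called none of the 30, against 0.0749%. With the trends removed edgeR called none, against 0.0624%, and the log2 difference was 0.23 for MSMO1, 0.18 for IDI1 and 0.11 for SC5D. Without carmine library C edgeR called 4 of the 30 as higher with carmine than with carminic acid, against 4.21% of all genes: MSMO1 at a log2 difference of 0.40 (adjusted p = 0.016), SC5D at 0.38 (adjusted p = 0.0223), IDI1 at 0.33 (adjusted p = 0.0199) and ELOVL5 at 0.24 (adjusted p = 0.0431). All 4 are among the 8 genes under 45% GC. With the GC and length trends removed as well, which was tried after seeing the data, none of the 30 was called, against 0.215% of all genes, and the log2 difference was 0.18 for MSMO1, 0.18 for SC5D, 0.20 for IDI1 and 0.11 for ELOVL5.

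The rest of the pathway was followed with 3 further lists, in which edgeR, DESeq2 and limma-voom called 0 genes in either comparison with control. The shares of all genes to set these lists against are 11% with carmine and 6.43% with carminic acid at an unadjusted p under 0.05, and 51.7% and 48.1% above 0. Of 12 other cholesterol synthesis genes, 0 had an unadjusted p under 0.05, and 9 of 12 lay above 0 with carmine and 5 of 12 with carminic acid. Of 24 other fatty acid genes, 21 could be tested, and 4 with carmine and 2 with carminic acid had an unadjusted p under 0.05. Of these 21, 14 lay above 0 with carmine and 10 with carminic acid. Of 18 other genes of SREBP control, 2 with carmine and 1 with carminic acid had such a p, and 14 of 18 lay above 0 with carmine and 7 with carminic acid. SLC25A1, the mitochondrial citrate carrier, had 230, 216 and 295 CPM with carmine, 233, 256 and 242 CPM with carminic acid, and 219, 206 and 198 CPM in control, and carmine library C was the highest. Its log2 fold change was 0.25 (SE 0.0992, adjusted p = 0.404) with carmine and 0.23 (SE 0.0992, adjusted p = 0.717) with carminic acid. With the trends removed the log2 fold change of SLC25A1 was 0.13 with carmine and 0.12 with carminic acid, and without carmine library C it was 0.11 with carmine.

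MBTPS1, the site-1 protease that cleaves SREBPs, had 171, 165 and 170 CPM with carmine, 173, 186 and 174 CPM with carminic acid, and 163, 156 and 163 CPM in control. It lay wholly above control with both agents, as 7.32% of all genes did with carmine and 12% with carminic acid. The log2 fold change of MBTPS1 was 0.07 (SE 0.0636) with carmine and 0.15 (SE 0.0636, adjusted p = 0.717) with carminic acid. HSD17B12, a reductase of fatty acid elongation, was at -0.25 with carminic acid (SE 0.0990, adjusted p = 0.717). Set against carminic acid, carmine gave HSD17B12 a log2 difference of 0.27 (adjusted p = 0.473), and of 0.38 (adjusted p = 0.0165) without carmine library C, a fit that called 4.21% of all genes. With the trends removed over all 9 libraries the difference of HSD17B12, a gene of 40.3% GC, was 0.16 (adjusted p = 0.435). EBP, a sterol isomerase, had 200, 198 and 287 CPM with carmine, against 208, 187 and 185 CPM in control, and a log2 fold change of 0.24 with carmine (SE 0.123, adjusted p = 0.474). Carmine library C carried that value, which was 0.048 without it.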

How the data were processed

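Total RNA of 9 libraries was sequenced, 3 per group. The counts that the authors deposited are raw counts per NCBI Gene ID. Per the submitters' processing notes, reads were handled with FastQC, HISAT and featureCounts on hg38, with no versions named. HISAT2 stands in the file headers. How strand and multi-mapped reads were treated is not given in the sources used here.

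Symbols came from RefSeq GRCh38.p14 (27745 of 28395 IDs matched). Length and GC content came from the longest GENCODE transcript of each gene. Counts were filtered with filterByExpr (16017 genes left), scaled by TMM and fitted in edgeR 4.0.16 (R 4.3.3) with a robust quasi-likelihood model over all 9 libraries and 3 contrasts, tested two-sided, with Benjamini and Hochberg adjustment over all tested genes and a threshold of 0.05. The fit was also run on counts simulated without GC or length trends, which cannot tell how it behaves on libraries that have them. The common biological coefficient of variation came to 10.9%. CPM were scaled by TMM and are given per library or as mean ± SD. Log2 CPM for arm levels used a prior count of 2. DESeq2 1.42.0, limma 3.58.1 and other alternatives were run; GC and length trends were fitted with mgcv 1.9.3. Within a group, no library was a copy of another (chi-square per degree of freedom of 9.51 or more). Libraries of different groups were not compared in this way.

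The members and lists were chosen with earlier results of these data known. Values in every library were given for 10 genes fixed by name, for the gene with the smallest p of each of the 5 roles in each comparison with control and for any gene past the threshold; of the 3 other pathway lists, the gene with the smallest p per comparison was named, except where it is not reported here. STARD4, SC5D, the neighbours of ACACA and LSS and the GC limits of 45 and 55% were added after values were seen.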

Additional observations from a re-analysis of the deposited data

How the results depend on the processing

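None of the 30 genes passed in any setting in either comparison with control. Between carmine and carminic acid the count of 0 became 1 in DESeq2, and 0 to 4 over the fits without 1 library; the 4 appeared without carmine library C. No direction of a called gene was reversed, while uncalled fold changes crossed 0 in at most 10 of the 30 genes per setting, the 10 being with carmine without carmine library C. Over all genes, the count past the threshold with carmine was 0 in the model reported and 75 in DESeq2, 36 in limma-voom, 19 with no count filter, 12 with the 6 libraries compared, 7 with RLE factors, 7 with library sizes alone, 141 with trends removed and 1 to 36 without 1 library. With carminic acid 0 became 8, 15, 2 and 49 in the first 4 of these, 2 with trends removed and 0 to 1 without 1 library. In the direct contrast 1 became 77, 12, 9 and 1, then 2, 2 and 10, 0 without robust estimation, and 0 to 685 without 1 library. A replicate block on the letters called 0 of the 30 genes and 0 of all genes in each contrast. With the trends removed as well it called 293, 3 and 18 genes (carmine, carminic acid, direct), none of the 30. Deviations from the group mean correlated at -0.149 to 0.0952 between libraries with the same letter, and at -0.162 to 0.156 with different letters. These correlations cannot tell whether the letters pair the samples, since each group holds 3 libraries with unequal GC trends.

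The cholesterol arm level with carmine was -0.0147 without control library A, -0.014 without carmine library A and -0.0126 without carmine library C, against 0.00575, and reached 0.0471 without carmine library B. The fatty acid arm level with carminic acid was -0.0117 without control library B and -0.00311 without carminic acid library A, against 0.064. Of the 30 genes, the 29 other than ACACA each had 5806 counts or more in all; whether depth, the number of libraries or their unequal GC trends kept genes from being called was not tested.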
